A study of Mus musculus with 6 samples.

Results

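The genes described here are 33 markers of neuronal structure and synaptic function, followed in mesenchymal progenitor cells after depletion of the Polycomb ligases Ring1a and Ring1b. They were chosen by name, with no filter on level, from a table of 20325 genes. By symbol 32 were found, and Map2 was found under its older symbol Mtap2, which RefSeq lists as its synonym. RNA was sequenced from 6 samples of C3H10T1/2, a multipotent line derived from C3H mouse embryos, all of the parental genotype and at passage 10 to 15. In the knockdown group, 3 samples received small interfering RNAs (siRNAs) against both Ring1a and Ring1b, and in the control group 3 samples received a scrambled siRNA. The sources used here do not give the time between transfection and harvest. Nothing in the labels says that the replicates are separate cultures, so p-values measure only how far these samples scatter, and that scatter may be technical.

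Neurons are held in shape by a cytoskeleton of tubulin, microtubule-associated proteins and neurofilaments. They release transmitter from synaptic vesicles and peptides from dense core granules, and receive it at receptors anchored by scaffold proteins. In cells outside the nervous system many of these genes are kept silent, some by the repressor REST and its cofactors, and some at CpG-rich promoters that Polycomb complexes occupy. Ring1a and Ring1b, encoded by Ring1 and Rnf2, attach ubiquitin to histone H2A as the catalytic subunits of the Polycomb repressive complex PRC1.

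A small part of this neuronal set changed. Crmp1, Ptprd, Uchl1 and Tubb3 rose in the knockdown, Scg2 fell, and 7 further members with enough reads did not pass the test. The other 21 members, among them the neurofilament genes, Snap25 and the transmitter enzymes and transporters, stood at or near 0 in both groups and were too low to test. The unit is a read count estimated for each gene and median-normalized by the authors, called the signal below. The test was limma on log2(signal + 1), applied to all 12085 genes with a mean signal of at least 10 over the 6 libraries, with p-values adjusted by the Benjamini-Hochberg method and a threshold of 0.05. A log2 fold change below is the knockdown mean minus the control mean on that scale, and it understates how far low genes moved. Of the 12 members tested, 4 were called higher and 1 lower, where 3.20% of all tested genes were called higher and 1.78% lower. Crmp1, Ptprd and Uchl1 passed the level filter only through their knockdown values, so their presence among the calls cannot be read as a share of the whole set.

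The siRNA targets and 1 library bear on every value. Rnf2 had a signal of 129, 76.5 and 152 in knockdown replicates 1, 2 and 3, against 815, 829 and 799 in the controls (limma adjusted p = 0.00946). The signal of Ring1 was 162, 268 and 186 in the knockdowns, against 336, 386 and 374 in the controls, which missed the threshold (limma adjusted p = 0.104). Its knockdown values all lay below its control values. Without knockdown replicate 2 it was called lower (log2 fold change −1.06, SE 0.1, limma adjusted p = 3.86e-06), in a fit that called 26.1% of all tested genes lower. Knockdown replicate 2 differed from the rest, with correlations across genes of 0.821 to 0.867 to the other libraries on the log2 scale, against 0.944 to 0.993 for pairs without it. It was also the shallowest: 1 read was worth a signal of about 0.565, 4.251 and 0.711 in knockdown replicates 1, 2 and 3, and of 0.259, 2.506 and 0.903 in control replicates 1, 2 and 3. A count of 3 reads is therefore worth a signal of 12.75 in knockdown replicate 2 and 7.52 in control replicate 2, but 0.78 in control replicate 1. These floors cover counting error only.

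Upstream sequences of 4 members that were called are printed here because CpG content marks the promoters that Polycomb complexes occupy. Each is the stretch of 250 bases before the annotated transcription start in RefSeq on build GRCm38.p6, a newer build than the mm9 to which the authors aligned. It is written 5′ to 3′ on the strand of the gene, with CG dinucleotides in capitals. Crmp1 lies at chr5:37241808-37242057 on the plus strand for the first of its annotated windows, Uchl1 at chr5:66675871-66676120 on the plus strand, Tubb3 at chr8:123411303-123411552 on the plus strand, and Scg2 at chr1:79440027-79440276 on the minus strand.
Crmp1: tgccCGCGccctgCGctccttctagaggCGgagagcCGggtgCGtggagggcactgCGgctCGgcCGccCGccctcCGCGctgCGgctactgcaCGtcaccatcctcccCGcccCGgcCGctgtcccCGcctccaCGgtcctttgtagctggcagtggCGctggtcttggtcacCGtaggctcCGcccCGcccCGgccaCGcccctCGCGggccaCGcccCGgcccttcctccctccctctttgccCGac
Uchl1: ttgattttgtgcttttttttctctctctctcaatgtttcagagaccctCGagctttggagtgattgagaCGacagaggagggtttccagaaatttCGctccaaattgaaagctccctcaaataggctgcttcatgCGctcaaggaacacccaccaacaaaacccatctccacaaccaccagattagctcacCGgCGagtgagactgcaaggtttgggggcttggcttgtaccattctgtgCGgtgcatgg
Tubb3: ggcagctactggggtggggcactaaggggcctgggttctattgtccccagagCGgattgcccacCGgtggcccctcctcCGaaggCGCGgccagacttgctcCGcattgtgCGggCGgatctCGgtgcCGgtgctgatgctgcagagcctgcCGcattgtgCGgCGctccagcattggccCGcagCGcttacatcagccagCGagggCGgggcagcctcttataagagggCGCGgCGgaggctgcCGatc
Scg2: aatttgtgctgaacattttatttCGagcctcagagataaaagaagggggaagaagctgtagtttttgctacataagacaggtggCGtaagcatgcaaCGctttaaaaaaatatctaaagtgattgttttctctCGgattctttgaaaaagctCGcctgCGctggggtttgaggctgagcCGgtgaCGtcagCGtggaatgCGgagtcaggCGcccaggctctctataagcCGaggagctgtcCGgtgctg
These stretches held 30 CG dinucleotides for Crmp1, 7 for Uchl1, 21 for Tubb3 and 13 for Scg2. Ptprd, the other called member, had no promoter sequence in the sources used here.

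Of the 11 cytoskeletal and growth-associated members, 5 were tested, and 2 of them rose. Crmp1, a collapsin response mediator that couples guidance signals to the growth cone cytoskeleton, had a signal of 79.2, 42.5 and 80.3 in knockdown replicates 1, 2 and 3, against 2.33, 0 and 2.71 in the controls. The groups did not overlap, and the control values rest on about 9, 0 and 3 reads. The mean was 67.3 ± 21.5 in the knockdown and 1.68 ± 1.47 in the control (SD, n = 3 each), a 40.1-fold rise (log2 fold change 4.83, SE 0.61, limma adjusted p = 0.0164). Tubb3, the neuronal class III beta-tubulin, had a signal of 197, 149 and 195 in the knockdowns, against 72.5, 77.7 and 63.2 in the controls. All knockdown libraries lay above all controls, with means of 181 ± 27.5 and 71.1 ± 7.32 (SD, n = 3 each), a 2.54-fold rise (log2 fold change 1.32, SE 0.20, limma adjusted p = 0.0225). That call was lost, at a larger SE, when libraries were scaled to the same total (log2 fold change 1.18, SE 0.32, limma adjusted p = 0.152) and with a correction for transcript length (1.13, SE 0.30, limma adjusted p = 0.0653), a correction added after the data were seen.

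Map2, Stmn2 and Gap43 were expressed but not called. Map2, which stabilizes dendritic microtubules, was among the most abundant members, with 1295, 599 and 1423 in the knockdowns, against 1049, 1061 and 1053 in the controls. Knockdown replicate 2 lay below every control and the other knockdowns above, so the groups overlapped and the log2 fold change was −0.03 (SE 0.35, limma adjusted p = 0.962). Without that library it was 0.36 (SE 0.06, limma adjusted p = 0.000272). Stmn2, a microtubule-destabilizing stathmin of growing axons, had 393, 527 and 303 in the knockdowns, against 291, 228 and 201 in the controls. Its groups did not overlap, but replicate 3 of the knockdown came close to replicate 1 of the control, and the difference did not pass (log2 fold change 0.74, SE 0.26, limma adjusted p = 0.194). It passed without knockdown replicate 2 (log2 fold change 0.54, SE 0.16, limma adjusted p = 0.0224). Gap43, a membrane protein of axonal growth cones, had 11.3, 4.25 and 24.2 in the knockdowns, against 17.1, 17.5 and 9.03 in the controls, which is a mixed order with no call. Its log2 fold change was −0.35 (limma adjusted p = 0.734) and 0.23 without knockdown replicate 2 (limma adjusted p = 0.667). The remaining 6 of this role were too low to test. Nefl and Nefm, the light and medium neurofilament subunits, were listed at 0 in every library. Nefh, the heavy subunit, had at most 3.55 in the knockdowns and 3.11 in the controls. Ina, encoding internexin alpha, had 1.13 in knockdown replicate 1 and was listed at 0 elsewhere. Stmn3 had at most 1.70 in the knockdowns and 0.903 in the controls. Dcx, the doublecortin of migrating neurons, was listed at 0 in all 3 knockdowns, against 2.65, 0 and 2.99 in the controls, or about 10, 0 and 3 reads.

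**Figure D1:**
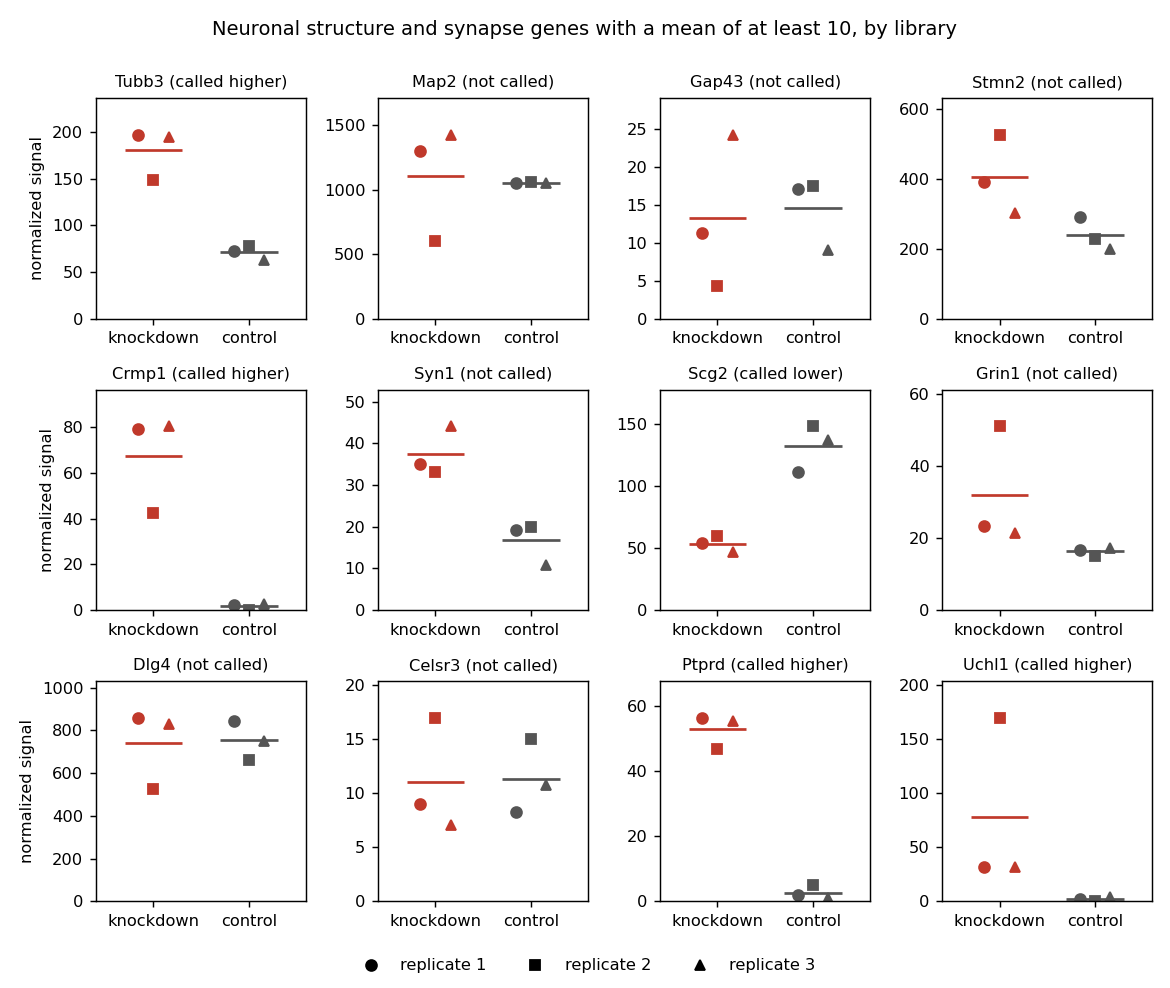
Normalized signal (y axis, linear from 0, scaled per gene) of the 12 tested members in each library, knockdown left and control right. Points are libraries with a shape for each replicate number, and bars are group means. Crmp1, Ptprd, Uchl1 and Tubb3 show 3 knockdown libraries above all controls, Scg2 shows 3 below, and Uchl1 in knockdown replicate 2 reaches 170.1.

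Of the vesicle fusion members, Syn1 alone was tested and was not called. Syn1 encodes synapsin I, which tethers synaptic vesicles, and had 35.1, 33.2 and 44.1 in the knockdowns, against 19.3, 20 and 10.8 in the controls. Every knockdown library exceeded every control, a 2.24-fold difference of means that missed the threshold (log2 fold change 1.15, SE 0.31, limma adjusted p = 0.109). It passed without knockdown replicate 2 (log2 fold change 1.23, SE 0.31, limma adjusted p = 0.00594). Snap25, a membrane-bound component of the fusion machinery, was listed at 0 in all 6 libraries. Syt1, the calcium sensor of fast release, had 1.42 in knockdown replicate 3, about 2 reads, and was listed at 0 elsewhere.

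Among the granins of dense core granules, Scg2 fell. Scg2, encoding secretogranin II, had 53.7, 59.5 and 46.9 in the knockdowns, against 111, 148 and 137 in the controls. The 3 knockdown values lay close together and below all controls, with means of 53.4 ± 6.32 and 132 ± 18.7 (SD, n = 3 each). This 2.48-fold drop passed the test (log2 fold change −1.29, SE 0.20, limma adjusted p = 0.0259). It passed also with both other scalings and with the length correction, but not with any library other than knockdown replicate 2 left out. Chga, the chromogranin A gene, was listed at 0 in every library, and Chgb, encoding chromogranin B, had 3.39 in knockdown replicate 1 and 1.81 in control replicate 1 and was listed at 0 in the rest.

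Neither tested gene of the receptor and scaffold role was called. Grin1, the obligate NMDA receptor subunit, had 23.2, 51.0 and 21.3 in the knockdowns, against 16.8, 15.0 and 17.2 in the controls. The groups did not overlap, with knockdown replicate 2 far above the others, and the difference did not pass (log2 fold change 0.81, SE 0.38, limma adjusted p = 0.301). Dlg4, encoding the postsynaptic scaffold PSD-95, had 859, 527 and 829 in the knockdowns, against 843, 663 and 751 in the controls, and a log2 fold change of −0.05 (SE 0.24, limma adjusted p = 0.893). The values overlapped, with knockdown replicate 2 lowest of all 6. Gria1, an AMPA receptor subunit, had 6.79, 0 and 6.40 in the knockdowns, against 4.66, 0 and 3.61 in the controls, with 0 only in the 2 shallowest libraries. Gria2, a further AMPA receptor subunit, had 0.903 in control replicate 3, a single read, and was listed at 0 elsewhere.

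All 6 genes of transmitter synthesis and vesicular loading were too low to test. Slc17a7, the vesicular glutamate transporter VGLUT1, had 5.65, 4.25 and 3.55 in the knockdowns, against 1.29, 0 and 0 in the controls. Its knockdown values lay above its control values, but they correspond to about 10, 1 and 5 reads against 5, 0 and 0. Gad2, which makes GABA at terminals, had 3.69, 12.9 and 2.96 in the knockdowns, against 2.63, 0 and 4.31 in the controls, and these overlapped. Gad1, the other GABA-synthesizing enzyme, had 17 in knockdown replicate 2, or about 4 reads, and 0.711 in knockdown replicate 3, and was listed at 0 in the other 4 libraries. Slc17a6 (VGLUT2) had 1 read in control replicate 1 and Th, the tyrosine hydroxylase of catecholamine synthesis, 1 read in knockdown replicate 3. Slc32a1, the vesicular GABA transporter, was listed at 0 throughout. Gad2 exceeded the floor of 3 reads in 5 libraries, Slc17a7 in 3 and Gad1 in 1, and the other 3 genes in none. For Gad2 this includes knockdown replicate 2, at 12.9 against a floor of 12.75, which rounds to 3 reads.

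Ptprd and Uchl1 gave further large rises. Ptprd, a receptor tyrosine phosphatase that organizes synapses as a presynaptic adhesion molecule, had 56.5, 46.8 and 55.4 in the knockdowns, against 2.07, 5.01 and 0.903 in the controls. The knockdown values lay within a narrow range, also in replicate 2, while the control values rest on about 8, 2 and 1 reads. The means were 52.9 ± 5.35 and 2.66 ± 2.12 (SD, n = 3 each), a 19.9-fold rise (log2 fold change 4.04, SE 0.47, limma adjusted p = 0.0138). Uchl1, an abundant ubiquitin hydrolase of neurons, had 31.7, 170.1 and 32.0 in the knockdowns, against 1.81, 0 and 3.61 in the controls. Its knockdown mean of 77.9 ± 79.8 (SD, n = 3) is set by replicate 2, and the 43.1-fold rise of means was 17.6-fold without that library. Both estimates passed the test, at a log2 fold change of 4.60 (SE 0.88, limma adjusted p = 0.047) with all libraries and 3.80 (SE 0.62, limma adjusted p = 0.000334) without replicate 2. With a pseudocount of 10 Uchl1 missed the threshold (limma adjusted p = 0.0823), and with one of 0.1 both Uchl1 and Crmp1 did (limma adjusted p = 0.1 for Uchl1 and 0.071 for Crmp1). Celsr3, an atypical cadherin needed for axon tracts, had 9.05, 17 and 7.11 in the knockdowns, against 8.29, 15.0 and 10.8 in the controls, in both groups highest in the shallow replicate 2, and was not called (limma adjusted p = 0.899).

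None of the 3 neuronal RNA-binding protein genes was tested. Rbfox3, which encodes the neuronal nuclear antigen NeuN, had 2 reads in knockdown replicate 2 and 1 in control replicate 1. Elavl3 had 1.13, 4.25 and 0.711 in the knockdowns, against 0.518, 0 and 0.903 in the controls, at most 2 reads in any library. Elavl4 was listed at 0 in all 6. These genes, which mark differentiated neurons, thus showed no signal above the floor of 3 reads in any library of either group.

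**Figure D2:**
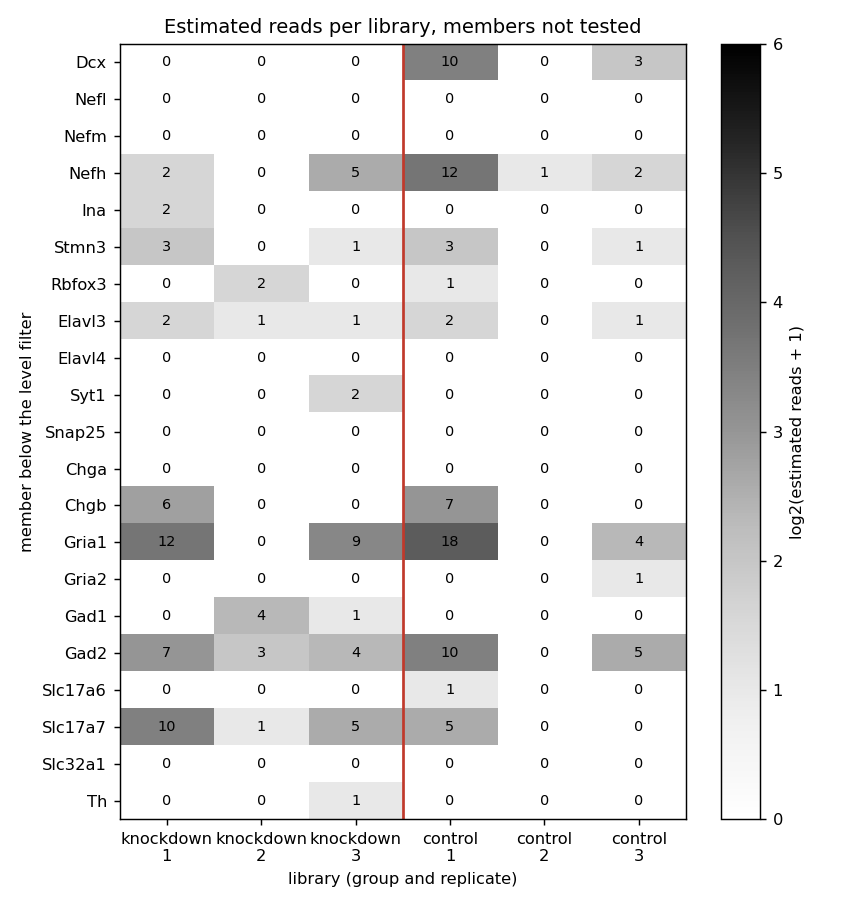
Estimated reads (signal divided by the value of 1 read, printed in each cell and shaded on a log2 scale) for the 21 members below the level filter, knockdown libraries left of the line and controls right. Rows for Nefl, Nefm, Elavl4, Snap25, Chga and Slc32a1 are 0 throughout, and 14 of the 21 exceed 3 reads in no library.

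Over the whole set, 6 members were listed at 0 in every library and 27 had a signal in at least 1. In 8 of these 27 the 3 knockdown values lay above the 3 control values, and in 1 below. Over all 16507 genes of the table with a signal, the groups were apart in this way in 17.8% with the knockdown higher and 18.3% with it lower. The 8 were Tubb3, Stmn2, Crmp1, Syn1, Grin1, Slc17a7, Ptprd and Uchl1, and the 1 was Scg2. The median log2 fold change of the 12 tested members was 0.78, beside 0.01 for all tested genes, with 7 members above 0 and 5 below. As 3 of the 12 were tested only because their knockdown values were high, this median is a description and not evidence about the set. An exact permutation test of 3 samples against 3 cannot go below 0.1, so calls of single members rest on the fit across genes.

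**Figure D3:**
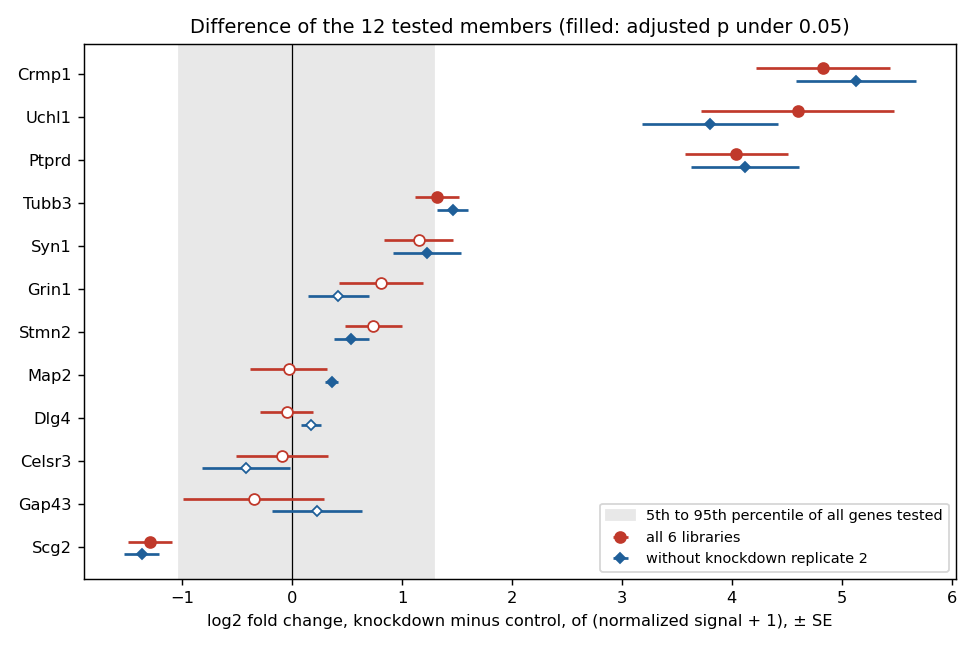
Log2 fold change of the 12 tested members, knockdown minus control, with bars for the standard error. Circles use all 6 libraries, diamonds leave out knockdown replicate 2, filled symbols have an adjusted p under 0.05, and the shaded band spans the 5th to the 95th percentile of all tested genes (−1.03 to 1.29). Crmp1, Uchl1 and Ptprd lie far to the right of the band, Tubb3 at its right edge and Scg2 left of it.

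The calls depended on which libraries were in the fit. Without knockdown replicate 2 limma called 7 of the 12 members higher and 1 lower, in a fit that called 23.8% of all tested genes higher and 26.1% lower. The 3 added were Map2, Stmn2 and Syn1. Without any 1 of the other 5 libraries, each of the 5 called members missed the threshold. Over the 6 fits that each left out a library, their log2 fold changes kept their sign and lay between 4.22 and 5.17 for Crmp1, 3.64 and 4.47 for Ptprd, 3.80 and 5.08 for Uchl1, 1.24 and 1.46 for Tubb3, and −1.41 and −1.20 for Scg2. The highest limma adjusted p among them was 0.182, for Uchl1 without control replicate 1.

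Knockdown replicate 2 shifted members in both directions. Relative to the mean of knockdown replicates 1 and 3 on the log2 scale, it was highest for Uchl1 (2.38), Grin1 (1.16) and Celsr3 (1.0), and lowest for Gap43 (−1.74), Map2 (−1.18) and Crmp1 (−0.89). Across 11940 tested genes this difference had a Spearman correlation of −0.61 with the length of the principal transcript. Across the 12 members, which share the same libraries, it was 0.01. The part of length in each member's value was not tested.

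Per kilobase of the principal transcript, the members spanned a wide range. Dlg4, Stmn2 and Map2 were the most abundant, at a mean level of 212, 197 and 177 signal units per kilobase in the knockdown, against 216, 116 and 168 in the control. Tubb3 followed, with a level of 96.6 in the knockdown and 38.1 in the control, and Scg2, with 21.2 in the knockdown and 52.6 in the control. Uchl1 had a level of 66.2 in the knockdown, between Tubb3 and Scg2, against 1.54 in the control. Crmp1 had 23.2 in the knockdown and 0.578 in the control, and Ptprd 5.35 in the knockdown and 0.269 in the control, so that the rise left Ptprd below Syn1 at 11.7 per kilobase. The order of Dlg4, Stmn2 and Map2 in the knockdown is not set beyond the spread of their replicates. Grin1 had 7.51 in the knockdown and 3.86 in the control, Gap43 had 9.32 in the knockdown and 10.2 in the control, and Celsr3 0.955 in the knockdown and 0.984 in the control. Fewer cells that express a gene and less RNA per cell cannot be told apart in these bulk samples.

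The same contrast was read in 95 other neuronal genes, in 5 lists by the same roles. The table holds 94 of them, and 45 were tested, of which 4 were called higher and 1 lower, or 8.89% and 2.22%, beside the 3.20% and 1.78% of all tested genes. Of the 4, Vip, Dlg2 and Nrxn2 passed the level filter only through their knockdown values, so this share too is a description. The median log2 fold change of the 45 was 0.06. Vip, the vasoactive intestinal peptide gene, had 420.1, 531 and 235 in the knockdowns, against 8.03, 5.01 and 6.32 in the controls (limma adjusted p = 0.00535). Penk, the enkephalin precursor gene, moved the other way, with 379, 901 and 441 in the knockdowns, against 3259.8, 2338 and 2416 in the controls (limma adjusted p = 0.029). Both encode peptides of dense core granules, where Scg2 also belongs. Of the 16 genes of that list 3 were tested, and the remaining one, Cpe, was not called (log2 fold change 0.32, limma adjusted p = 0.437). As Vip could be tested only because it was high in the knockdown, no direction of this role is read from these genes. Nrxn2, a presynaptic neurexin, had 17.5, 34.0 and 14.9 in the knockdowns, against 0.259, 2.51 and 1.81 in the controls (limma adjusted p = 0.0341). Ncam1, a neural cell adhesion molecule, had 811, 578 and 848 in the knockdowns, against 303, 383 and 338 in the controls (limma adjusted p = 0.0429). Dlg2, a scaffold paralog of Dlg4, had 20.9, 25.5 and 17.1 in the knockdowns, against 6.21, 5.01 and 2.71 in the controls (limma adjusted p = 0.0405). Nrxn2 and Ncam1 were the 2 genes called among 10 tested of the adhesion list, whose median log2 fold change was −0.3. No trait of that role is read from them. The close Ptprd relatives Ptprs and Ptprf, chosen after their values were seen, were not called (log2 fold changes −0.34 and −0.18, limma adjusted p = 0.502 and 0.606). None of 13 further cytoskeletal genes and none of 10 further vesicle release genes was called in either direction by limma with all libraries. Among the most abundant of these, Tuba1a and Tubb2a had log2 fold changes of 0.37 and −0.21 (limma adjusted p = 0.31 and 0.388), and Dnm1 one of −0.62 (limma adjusted p = 0.051). Without knockdown replicate 2 all 3 were called, at 0.27 for Tuba1a, −0.22 for Tubb2a and −0.63 for Dnm1 (limma adjusted p = 0.0016, 0.0029 and 1.86e-06). Without knockdown replicate 2, 13 of 43 tested in the 5 lists were called higher and 7 lower, in the fit that called 23.8% and 26.1% of all tested genes, and Nrxn2 was below the level filter. In that fit the cytoskeletal list held 7 higher and 2 lower of 12 tested, and the vesicle release list 1 higher and 4 lower of 10.

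**Figure D4:**
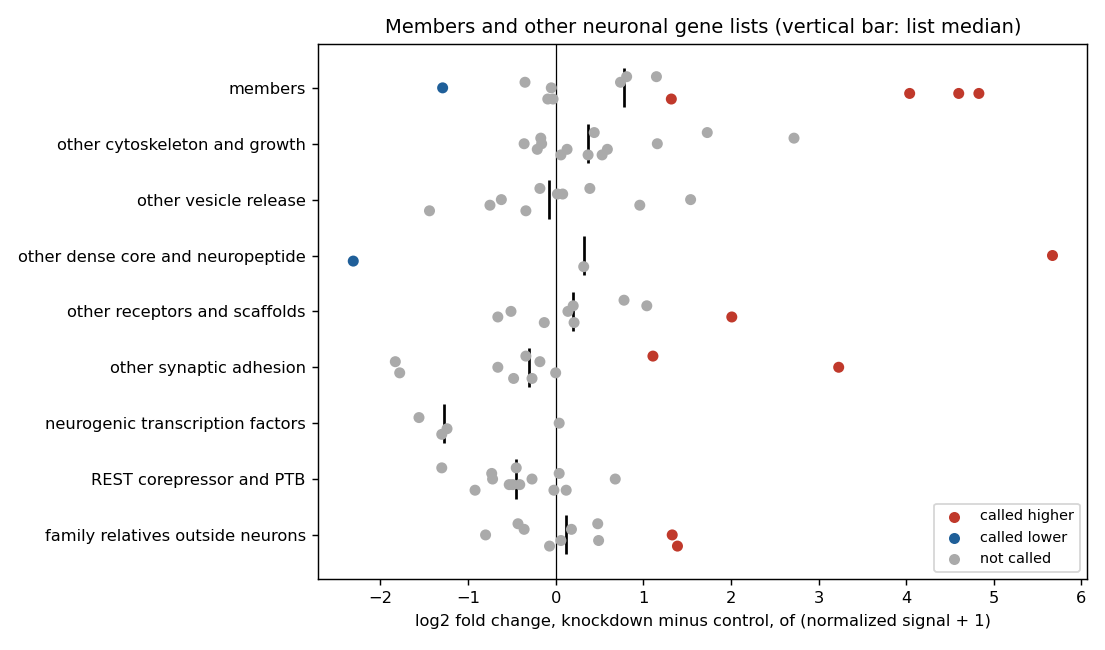
Log2 fold change, knockdown minus control, of every tested gene of the 33 members (top row), of 5 lists of other neuronal genes by role, and of 3 lists of regulators and relatives. Each point is a gene, red if called higher, blue if called lower and grey if not called, and the vertical bar is the list median. The members include 3 of the 4 genes above a log2 fold change of 4 in the panel, the fourth being Vip. All 4 passed the level filter only through their knockdown values, so their place here is a description.

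Family relatives of the members that are not confined to neurons were expressed in both groups. Of 10 such genes, all tested, 2 were called higher and 0 lower, where 3.20% and 1.78% of all tested genes were called. Without knockdown replicate 2, limma called 5 of the 10 higher and 3 lower. That fit called 23.8% of all tested genes higher and 26.1% lower. Tubb6, a widely expressed beta-tubulin, had 2060.3, 3075 and 2067 in the knockdowns, against 905, 957 and 959 in the controls (limma adjusted p = 0.0259), a 2.55-fold rise beside the 2.54-fold rise of Tubb3. Syt12, a synaptotagmin, had 139.8, 229 and 140.4 in the knockdowns, against 62.4, 62.6 and 61.5 in the controls (limma adjusted p = 0.0351).

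Genes that direct or restrain neuronal identity did not pass. Of 21 neurogenic transcription factor genes 4 were tested, and 0 were called higher and 0 lower. Among the others, Neurog1, Neurog3, Neurod1, Neurod4, Atoh1, Nhlh2, Myt1l and Pou3f2 were listed at 0 in all 6 libraries. Sox4, the most abundant, had 2285, 889 and 2200.1 in the knockdowns, against 5006, 4929 and 4666 in the controls (limma adjusted p = 0.0934), and Ebf1 had 894, 271 and 924 in the knockdowns, against 1514, 1523 and 1438 in the controls (limma adjusted p = 0.225). Both were called lower without knockdown replicate 2. All 13 genes of the REST corepressor and of the splicing repressors Ptbp1 and Ptbp2 were tested, and 0 were called in either direction. Rest itself, named after its values were seen, had 563, 170.1 and 655 in the knockdowns, against 792, 769 and 700.1 in the controls. Its knockdown values all lay below its control values, and the difference missed the threshold (log2 fold change −0.92, SE 0.52, limma adjusted p = 0.37). Without knockdown replicate 2 the difference was smaller and was called (log2 fold change −0.31, SE 0.08, limma adjusted p = 0.00689). Ctdsp2, a phosphatase that acts with REST, and Ptbp1 were the most abundant, with log2 fold changes of −0.53 and 0.12 (limma adjusted p = 0.271 and 0.768). Both were called without knockdown replicate 2, at −0.31 and 0.37 (limma adjusted p = 0.000378 and 0.000137). In that fit 2 of the 13 were called higher and 6 lower, beside 23.8% and 26.1% of all tested genes. Rcor2, named after its values were seen, had the largest difference there (log2 fold change −1.07, SE 0.07, limma adjusted p = 3.63e-07).

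Markers of the cells that could be present were read beside these results. All 10 mesenchymal markers were tested and none was called, with summed signals of 355699 to 633373 in the knockdowns and 528286 to 577899 in the controls. Col1a2 and Fn1 led them, with log2 fold changes of −0.03 and −0.30 (limma adjusted p = 0.952 and 0.712). Without knockdown replicate 2, 5 of the 10 were called higher and 3 lower, in the fit that called 23.8% and 26.1% of all tested genes. Among them were Thy1 at 0.64, Vim at −0.91 and Pdgfra at −0.92 (limma adjusted p = 3.19e-05, 3.53e-07 and 1.78e-06). The 6 neural progenitor markers summed to 0 to 12.4 in the knockdowns and 7.52 to 9.32 in the controls, with Sox1 and Hes5 listed at 0 and Sox2 and Pax6 at no more than 8.48. Neural crest markers summed to 0 to 4.25 in the knockdowns and 0 to 1.81 in the controls, with Foxd3 and Tfap2b listed at 0. Astrocyte markers summed to 449 to 2126 in the knockdowns and 1762 to 1942 in the controls, nearly all of it S100b, which cartilage cells also express and which had 502, 2049 and 412 in the knockdowns, against 1881, 1719 and 1888 in the controls. Gfap had 4.52, 21.3 and 5.68 in the knockdowns, against 37.3, 35.1 and 31.6 in the controls (limma adjusted p = 0.133), and Aqp4 was at 0 in all but 1 control library. Slc1a2, a glutamate transporter of the same list, lay the other way, with 31.1, 25.5 and 26.3 in the knockdowns, against 17.4, 7.52 and 14.4 in the controls (log2 fold change 1.09, limma adjusted p = 0.163). Aldh1l1 had 3.96, 29.8 and 4.97 in the knockdowns, against 6.47, 0 and 7.23 in the controls, and was not tested. S100b and Gfap were called lower without knockdown replicate 2 (log2 fold changes −2.0 and −2.55, limma adjusted p = 1.55e-08 and 2.29e-05) and Slc1a2 higher (1.14, limma adjusted p = 0.0197). Epithelial markers, mostly Cdh1, summed to 17.1 to 42.5 in the knockdowns and 15.0 to 31.6 in the controls. Leukocyte markers, mostly Cd68 and Csf1r, summed to 14.2 to 25.5 in the knockdowns and 10.8 to 16.3 in the controls, with Cd3e listed at 0. None of the genes in these 6 marker lists was called in either direction by limma with all libraries. The part of other cell types in the members' values was not tested.

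Promoter sequence was described for 25 of the members, in 34 windows of 300 bases (250 before and 50 after each annotated start, RefSeq, GRCm38.p6). Member windows held a median of 15.5 CG dinucleotides, between 3 and 41, against 7 over all 32851 windows. At least 10 CG were present in 61.8% of member windows and in 43.5% of all windows. The 4 called members with a window ranged from 9 in Uchl1 to 41 in the first window of Crmp1, whose second window held 20, with 26 in Tubb3 and 16 in Scg2. Members that were not called or not tested spanned a like range, from 3 in Dcx to 37 in Map2, and Ina, Chgb and Elavl3, which held 32, 31 and 29, had next to no reads. The CG counts of Crmp1, Uchl1 and Tubb3 thus lay within the range of the others, apart from the first window of Crmp1. Ptprd, which also rose, had no window.

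**Figure D5:**
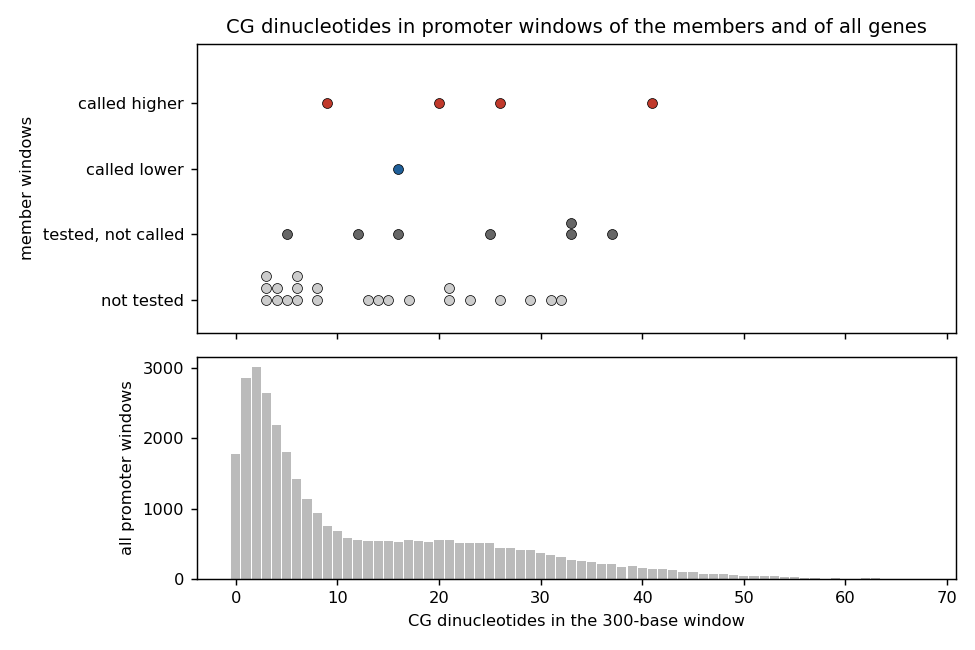
CG dinucleotides per 300-base promoter window (x axis), for member windows by call (top, each point a window) and as a histogram of all 32851 windows (bottom). The windows of members called higher (9 to 41) and of members not tested (3 to 32) overlap.

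The REST recognition site is built from a left and a right part, and both were searched as letters on both strands, TTCAGCACC for the left and GGACAGCGC for the right. The left part was found in 3 member windows, of Scg2, Celsr3 and Syn1, and in 0.37% of all windows, and the right part in 2, of Gad2 and Gria2, and in 0.40% of all windows. The stretches of 30 bases around each are shown because these are the members whose windows hold either part letter for letter, in capitals. Each is written in the direction that reads the letters as searched. Near matches were not searched, so a part with a changed letter beside these is not counted.
Scg2: ccgtTTCAGCACCggacagctcctcggctt
Celsr3: tccgTTCAGCACCgtgggcagcacttctgt
Syn1: cggaTTCAGCACCgcggtcagagccttcgc
Gad2: ggctgtggtagcaccctGGACAGCGCgttc
Gria2: ttcgattttagcaccgcGGACAGCGCtttg
In Scg2 the match lay on the opposite strand and ran from position −7 to position 1, counting the first transcribed base as 0. Of these 5 genes Scg2 fell, Syn1 and Celsr3 were not called, and Gad2 and Gria2 were too low to test. Neither part was found in the windows of Crmp1, Uchl1 or Tubb3, which says only that these letters are not there.

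In the authors' deposited table of 323 differential genes, 231 had a fold above 1 and 92 a fold below 1. Of the 33 members 3 were in it, beside 323 of all 20325 genes. The authors' deposited table gives a fold of knockdown over control of 43.9 for Uchl1, 40.3 for Crmp1 and 20.1 for Ptprd. The sources used here do not say by which test those genes were selected, but the name of that table points to a cut on fold. Tubb3 and Scg2, at a 2.54-fold rise and a 2.48-fold drop here, may lie below that cut. Their absence from it is therefore not read as a lack of change.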

How the data were processed

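The submitters' processing notes name build mm9, RSEM 1.2.12 and Bowtie 1.0.0. The sources used here give neither annotation nor strand setting, and reads of overlapping genes on opposite strands cannot be told apart. The authors deposited a normalized signal per gene and library, a median-normalized estimated count by the table's name, and a second table whose fold, a ratio of knockdown over control, is theirs. Estimated counts can be split between close paralogs such as tubulin genes. Among low signals (20 reads or fewer), 88.4 to 90.4% per library came out whole within 0.1 read. This was too few to recover reads, and a count test was left out.

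Log2(signal + 1) of genes with a mean of at least 10 was fitted with limma 3.58.1 in R 4.3.3 (two-sided, moderated with its trend and robust options), checked first on simulated data. The members, lists, tests and naming rule were chosen with earlier results of these data known. Every member is named; from each other list, up to 4 genes past the threshold with the smallest adjusted p, or the 2 most abundant. Lengths are medians of principal transcripts in GENCODE M21, found for 11940 tested genes. Alternatives covered the pseudocount, filter, scaling, replicate block, library weights, variance options, each library left out and transcript length. Some genes of the other lists are not reported here.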

Additional observations from a re-analysis of the deposited data

How the results depend on the processing

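Of 185 values of single members under 16 alternatives, 141 kept their call or lack of one. A call was lost in 36, all of them values of the 5 called members, as the other members had no call to lose. A call was gained in 5 with the same sign and in 3 with the sign reversed. The 12 members gave 4 rises and 1 fall with the settings reported. The rises numbered 2 with a pseudocount of 0.1 (Tubb3 and Ptprd), 1 with the filter raised to a mean of 50 (Tubb3, as the other 3 were not tested there), 2 when libraries were scaled to the same total (Crmp1 and Ptprd), 9 with library weights, and 0 to 7 when a library was left out. The falls numbered 0 to 1 when a library was left out. Members whose knockdown values all lay above the controls numbered 8 to 10 in those sets, and members with all below 1 to 2. The share over all genes was not taken for those sets, and smaller groups lie apart more easily. These counts are therefore a description. With library weights Map2 and Dlg4, at −0.03 and −0.05 with the settings reported, were called higher (log2 fold changes 0.30 and 0.18). Map2 ranged from −0.26 to 0.36 when a library was left out.

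Over all genes, 387 rose and 215 fell. The counts were 184 and 118 with the same total, where the median log2 fold change was −0.14 in place of 0.01, 4214 and 4596 with library weights, whose estimation stopped before convergence, 817 and 522 with the length correction (added after the data were seen), and 0 to 2855 and 0 to 3136 when a library was left out. Under the replicate block 0 genes rose and 0 fell by limma, members included (2473 genes had an unadjusted p under 0.05 without it). Deviations of same-numbered samples correlated at 0.17, −0.05 and −0.05, and knockdown replicate 2 correlated best with control replicate 3 (0.11), so the numbers were not taken to pair the samples, although replicate 2 is the shallowest and replicate 1 the deepest library in both groups. The cause of these differences was not tested. Depth limits the 21 untested members: 14 exceeded 3 reads in no library.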
